A study of Drosophila melanogaster with 12 samples.

Results

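Adult antennae of amos mutant Drosophila melanogaster were compared with control antennae across all genes, to describe which cell types, pathways and gene families were lower or higher in antennae that form without Amos. The comparison takes up 6 of the 12 samples of the series, those labelled as adult antenna, and the other 6 are larval antennal discs. The amos group comprised 3 samples (replicates 1, 2 and 3) of the amos3 mutant, and the control group comprised 3 samples (replicates 5, 6 and 7) of the w1118 strain, which the labels call wild-type. In both groups the animals were reared at 22°C under a light and dark cycle, males and females were collected without separation at 0 to 4 h after eclosion, and about 300 antennae were pooled per sample. The antennae were shaken off frozen animals through a sieve, so that each sample could hold whole antennae with all their segments, and strain background and genotype cannot be told apart here. The amos gene itself had at most 2 reads in any adult library, so its level was no check of the labels.

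The third antennal segment of the fly carries hair-like sensilla, each with the ciliated dendrites of a few olfactory sensory neurons and a set of support cells that wrap them and secrete the lymph around them. Amos is the basic helix-loop-helix proneural factor that selects the precursors of the trichoid, intermediate and basiconic sensilla, whose neurons mostly express odorant receptors (Or genes) together with the co-receptor Orco. Atonal selects the precursors of the coeloconic sensilla and of the sacculus, whose neurons express ionotropic receptors (Ir genes), and also those of Johnston's organ, the hearing organ of the second segment. Antennae of amos mutants are known to lack the first group of sensilla, the Or subsystem, and to keep the second, the Ir subsystem.

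The 3 amos libraries held 36396746 to 50252338 gene-assigned reads and the 3 control libraries 25150198 to 25721392. Levels are given as CPM, counts per 1000000 gene-assigned reads, and a floor of 3 reads stood for 0.0597 to 0.0824 CPM in amos and 0.117 to 0.119 CPM in control libraries. Intervals and floors of this kind cover counting error only. The first principal component of the 6 libraries separated the genotypes and held 86.2% of the variance. The amos replicates differed more among themselves (chi-square per degree of freedom 53.7 to 110) than the control replicates (6.73 to 10.9). Amos replicate 2, the deepest library, had the highest residual level of many genes of the Or subsystem, and its values are given beside those of the others.

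Of 9724 genes tested, 4573 (47.0%) differed between amos and control antennae at an adjusted p of 0.05 by the quasi-likelihood test of edgeR with Benjamini-Hochberg adjustment. Of all genes tested, 22.7% were higher (2203 genes) and 24.4% were lower (2370 genes), and the counts of each gene list below are to be read against these shares. Most of these differences were small, with 90% of all genes between a log2 fold change of -1.50 and 1.57. Genes that were called and also changed by more than 2-fold numbered 814 higher (8.37%) and 815 lower (8.38%). For 59.4% of the genes the 3 amos and 3 control libraries did not overlap (30.0% higher, 29.4% lower). Among the larger changes, decreases outnumbered increases, with 103 genes lower and 43 higher by more than 5 on the log2 scale. Because levels are relative to the total, the split of the calls depended on the scaling. Scaling on the ribosomal protein genes moved the median gene up by 0.25 on the log2 scale and gave 3557 higher and 1267 lower genes, so that 73.7% of the calls were higher, against 48.2% with TMM scaling. One fit over all 12 samples gave 2391 higher and 1583 lower genes (60.2% higher).

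**Figure D1:**
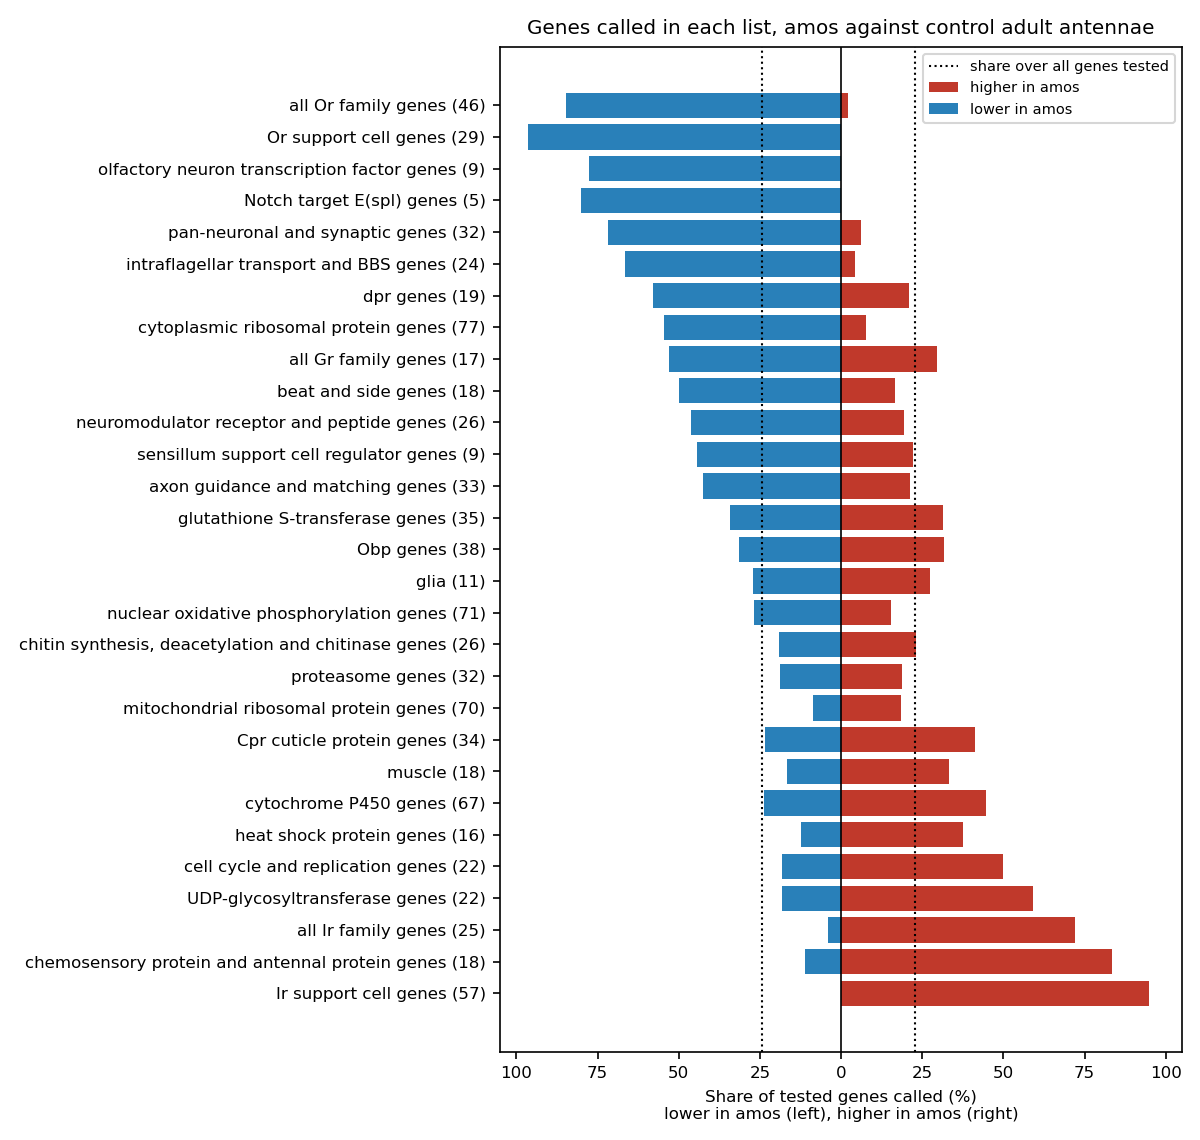
Share of the tested genes of 29 lists (number tested in brackets) that were called higher (right, red) or lower (left, blue) in amos antennae at an edgeR adjusted p under 0.05. Dotted lines mark the shares over all 9724 genes tested, 22.7% higher and 24.4% lower. Or receptors and Or support cell genes lie almost wholly on the lower side and Ir receptors and Ir support cell genes on the higher side, with neuronal, ciliary and cell surface genes between.

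Odorant receptors of the missing sensilla were nearly absent from amos antennae. All 12 receptor genes of trichoid and intermediate sensilla were lower (median log2 fold change -8.06), and their summed level was 3.02, 3.68 and 1.31 CPM in the amos libraries, against 313, 317 and 329 CPM in the control libraries. Or67d, the receptor of the male pheromone cis-vaccenyl acetate, had 0, 0.179 and 0 CPM in amos antennae, against 38.3, 40.9 and 47.3 CPM in control antennae (log2 fold change -9.15, SE 0.43, edgeR adjusted p = 2.9e-06). Or47b, a receptor of fly-derived fatty acid cues, had 0.302, 0.756 and 0.262 CPM in amos antennae, against 125, 135 and 134 CPM in control antennae. No library of one genotype overlapped with the other for any of the 12 genes. Or65b had 0, 3 and 0 reads in the amos libraries and was at least 404-fold lower, with 3 reads set as the level of each amos library. In bulk samples such as these, fewer cells of a type and less RNA per cell cannot be told apart.

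Of the 26 receptor genes of basiconic sensilla, 23 had enough reads to be tested and all 23 were lower (median log2 fold change -7.63). Together the 26 genes had 14.4, 25.8 and 14.4 CPM in the amos libraries, against 1267, 1182 and 1292 CPM in the control libraries. Or42b, a receptor for fruit esters, fell to 0, 0.876 and 0.0262 CPM in amos antennae, against 187, 180.0 and 201 CPM in control antennae (log2 fold change -9.09, SE 0.65, edgeR adjusted p = 2.3e-05). Or22a, a well studied ester receptor, had 0.0824, 0.736 and 0.0262 CPM in amos antennae, against 44.4, 40.4 and 48.3 CPM in control antennae. Or22a and Or22b are near-identical copies between which reads may be split. Amos replicate 2 held the highest residual level of both Or42b and Or22a, still far under every control library. A few receptors were less reduced. Or10a had 5.17, 6.73 and 8.04 CPM in amos antennae, against 29.7, 23.9 and 26.5 CPM in control antennae (log2 fold change -2.02), and Or43b had 5.50, 5.79 and 3.98 CPM in amos antennae, against 97.0, 89.7 and 103 CPM in control antennae (log2 fold change -4.27), both singled out after their values were seen. Or10a and Gr10a are neighbouring genes, and how reads on overlapping genes were counted is not stated.

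The co-receptor Orco, which every Or needs to reach the dendrite and to form a channel, fell less than most tuning receptors. It had 95.5, 115 and 57.5 CPM in amos antennae, against 3104, 2914 and 2769 CPM in control antennae (log2 fold change -5.06, SE 0.25, edgeR adjusted p = 3.9e-06). The low amos value in replicate 3 and the high one in replicate 2 both lay far below the control range. Or35a, the one Or gene of coeloconic sensilla, moved the other way, with 95.9, 93.2 and 90.2 CPM in amos antennae, against 38.9, 37.5 and 39.7 CPM in control antennae (log2 fold change 1.24, SE 0.07, edgeR adjusted p = 6.4e-06). Or35a was the only one of 46 Or genes tested that was higher, while 39 of 46 were lower. Receptors of the maxillary palp, another olfactory organ, were present at low levels in both groups. Of the 7 palp Or genes tested, 2 were lower, Or46a (log2 fold change -2.20) and Or33c (log2 fold change -1.70), and the call of Or33c was lost without control replicate 5, control replicate 6 or amos replicate 1 and in the fit over 12 samples. Without control replicate 7, 5 of the 7 were lower, and by DESeq2 4 were.

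Both carbon dioxide receptor genes, which work as a pair in one class of basiconic neuron, were lower. Gr63a had 0.165, 0.577 and 0.0524 CPM in amos antennae, against 112, 105 and 115 CPM in control antennae (log2 fold change -8.57), and its partner Gr21a had 0.192, 0.358 and 0.419 CPM in amos antennae, against 54.0, 50.4 and 45.6 CPM in control antennae (log2 fold change -7.26). Neither overlapped between the groups. Among the 17 gustatory receptor genes tested, 9 were lower and 5 higher. Gr93a (log2 fold change -5.39) stood out among the lower ones, with 0.275, 0.119 and 0.0262 CPM in amos antennae, against 5.68, 5.52 and 6.12 CPM in control antennae. On the higher side, Gr98b had 4.42, 4.96 and 3.35 CPM in amos antennae, against 0.156, 0.0389 and 0.398 CPM in control antennae, close to the floor in controls, and the bitter receptor Gr32a had 2.86, 1.53 and 1.23 CPM in amos antennae, against 0.467, 0.467 and 0.358 CPM in control antennae.

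**Figure D2:**
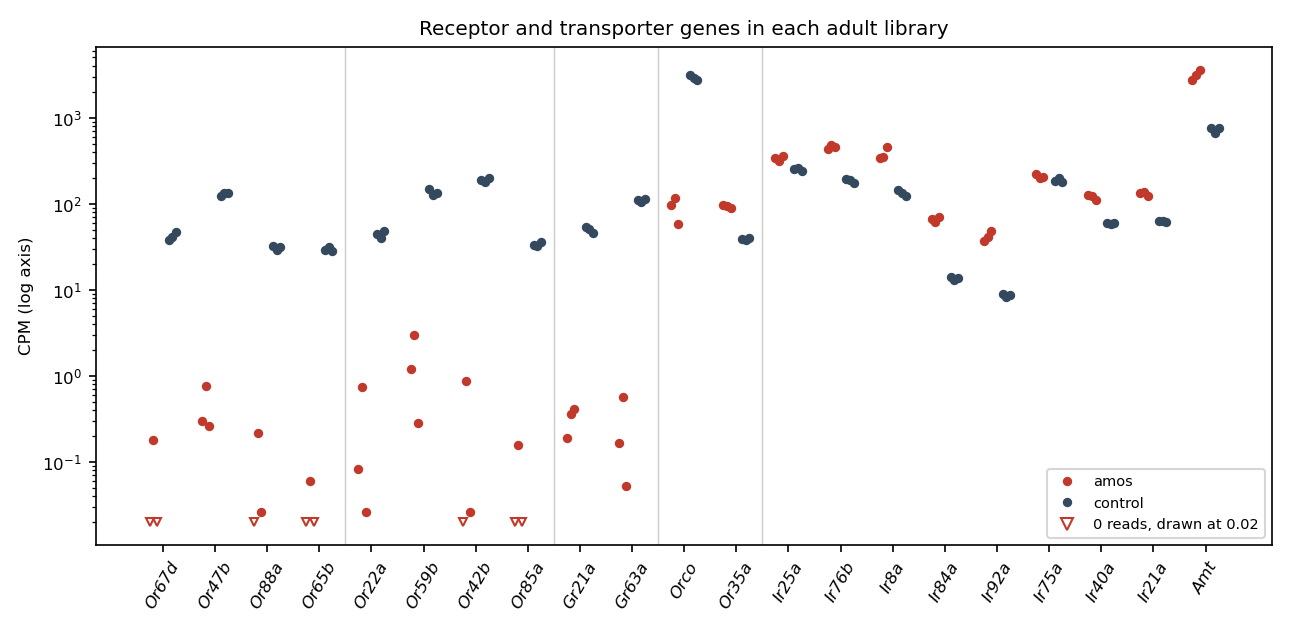
CPM (log axis) of receptor and transporter genes in each of the 3 amos libraries (red, left of each pair) and the 3 control libraries (dark, right). Open triangles are libraries with 0 reads, drawn at 0.02 CPM. From left to right the blocks hold trichoid Or genes, basiconic Or genes, carbon dioxide receptors, Orco with Or35a, and genes of coeloconic sensilla, the sacculus and thermosensory cells. All Or genes drawn lie under 120 CPM in amos, Orco and Or35a among them, and of these only Or35a was called higher. All Ir genes drawn other than Ir75a were called higher.

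Ionotropic receptors took a larger part of the RNA in amos antennae. All 4 co-receptor genes were higher. Ir8a, needed for acid sensing, had 343, 348 and 456 CPM in amos antennae, against 145, 135 and 124 CPM in control antennae (log2 fold change 1.49, SE 0.14, edgeR adjusted p = 9.7e-05), and Ir76b, needed for amine sensing, had 434, 478 and 450.3 CPM in amos antennae, against 194, 190.3 and 175 CPM in control antennae (log2 fold change 1.26). Ir25a, the most widely expressed co-receptor, was higher by less, with 341, 313 and 357 CPM in amos antennae, against 253, 258 and 242 CPM in control antennae (log2 fold change 0.40, SE 0.08, edgeR adjusted p = 0.0048). These groups did not overlap.

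Of the 12 tuning Ir genes of coeloconic sensilla and the sacculus, 10 were higher and none was lower (median log2 fold change 1.47). The largest increases were those of Ir75d (log2 fold change 2.75), Ir92a (log2 fold change 2.26) and Ir84a (log2 fold change 2.24). Ir84a, a receptor for phenylacetic cues of food, had 66.7, 61.0 and 70.5 CPM in amos antennae, against 14.2, 13.1 and 13.9 CPM in control antennae. Ir92a, an amine receptor, had 36.6, 40.8 and 48.3 CPM in amos antennae, against 9.03, 8.20 and 8.67 CPM in control antennae. The 10 increases were uneven, since Ir40a, a humidity receptor of the sacculus, had a log2 fold change of 1.00 and Ir75b of 0.56. Ir75a, the acetic acid receptor, was not called, with 224, 197 and 204 CPM in amos antennae, against 186, 197 and 179 CPM in control antennae (edgeR adjusted p = 0.19). It was called only with scaling on ribosomal protein genes, at a log2 fold change of 0.38. Ir68a, the other tuning Ir not called, had 1.29, 1.43 and 0.734 CPM in amos antennae, against 2.76, 2.45 and 1.27 CPM in control antennae, with a log2 fold change of -0.93 (edgeR adjusted p = 0.066). It passed the threshold as lower by DESeq2 (adjusted p = 0.0467), with thinned counts (adjusted p = 0.0331) and without control replicate 7 (adjusted p = 0.0304). Summed over the family, Ir genes took 0.238% ± 0.013 of the reads in amos antennae and 0.117% ± 0.0040 in control antennae (SD, n = 3 each), a ratio of 2.03, and Or genes took 0.0227% ± 0.0046 of the reads in amos antennae and 0.459% ± 0.017 in control antennae (SD, n = 3 each), a ratio of 0.0494.

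Of 4 temperature and ammonia sensing genes tested, 3 were higher. Amt, an ammonium transporter needed for ammonia responses, was among the most abundant of them, with 2732, 3114 and 3607 CPM in amos antennae, against 754, 661 and 753 CPM in control antennae (log2 fold change 2.10, SE 0.14, edgeR adjusted p = 1.3e-05). Thermosensory Ir21a had 134, 136 and 124 CPM in amos antennae, against 62.3, 63.1 and 61.4 CPM in control antennae, and Gr28b, a warmth receptor, had a log2 fold change of 1.06. TrpA1, another warmth-activated channel, was not called (log2 fold change -0.35, edgeR adjusted p = 0.084), and without amos replicate 3 one of the 4 genes was lower. Among the 14 ppk channel genes tested, 5 were higher and 4 lower, and 3 were higher without control replicate 6 or control replicate 7. Their largest increase was that of ppk25, which shapes pheromone responses of fruitless neurons, with 45.4, 52.9 and 44.6 CPM in amos antennae, against 4.67, 4.24 and 3.26 CPM in control antennae. The largest decreases were those of ppk13 (log2 fold change -3.98) and ppk5. The second of these had 5.22, 4.86 and 1.86 CPM in amos antennae, against 30.0, 32.2 and 30.5 CPM in control antennae.

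Of 9 accessory genes of pheromone detection, 4 were lower and 2 higher, and the 4 fell to different degrees. The members did not all fall, with a median log2 fold change of 0.55 and a range from -6.36 to 3.53. With 10 counts required in every library the median was -1.27. As a sum, the list took 0.111% ± 0.0044 of the reads in amos antennae and 0.622% ± 0.021 in control antennae (SD, n = 3 each), a ratio of 0.179. Without control replicate 6 or control replicate 7, 1 was higher. Snmp1, a CD36-related membrane protein that passes pheromone to its receptor, had 886, 847 and 817 CPM in amos antennae, against 2048, 2029.9 and 2062 CPM in control antennae (log2 fold change -1.29, SE 0.07, edgeR adjusted p = 5.9e-06). ATP8B, a phospholipid flippase of olfactory neurons, had 86.7, 124 and 125 CPM in amos antennae, against 429, 419.8 and 451 CPM in control antennae. The pheromone-binding protein lush had 50.0, 46.6 and 40.0 CPM in amos antennae, against 3464, 3651 and 3869 CPM in control antennae (log2 fold change -6.36, SE 0.12, edgeR adjusted p = 1.9e-07). For each of these genes every amos library lay below every control library.

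Odorant-binding proteins, small soluble proteins that support cells secrete into the sensillum lymph, split in both directions. Of 52 Obp genes, 38 were tested, and 12 were higher and 12 lower. The proteins known from trichoid and basiconic sensilla fell the most. Obp83a (OS-F) had 8.13, 91.0 and 10.7 CPM in amos antennae, against 10414, 10694 and 10131 CPM in control antennae (log2 fold change -8.17, SE 1.09, edgeR adjusted p = 0.00061), and Obp83b (OS-E) had 6.70, 55.0 and 5.42 CPM in amos antennae, against 5695, 6102 and 6259 CPM in control antennae. Amos replicate 2 was the highest of the amos libraries for both genes. Without amos replicate 2, the log2 fold changes of the 9 small secreted proteins on the study's Or list had a median of -7.45. Obp69a (log2 fold change -7.22) and Obp99d (log2 fold change -8.43) were lower to a like degree, Obp99d with 0.467, 0.298 and 0.917 CPM in amos antennae, against 177, 189.8 and 191 CPM in control antennae. Obp28a, an abundant protein of basiconic sensilla, kept more of its level, with 499.9, 567 and 471 CPM in amos antennae, against 9487, 9720.3 and 9129 CPM in control antennae (log2 fold change -4.23), and was added after its values were seen.

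Obp genes known from coeloconic sensilla and the sacculus were higher. Obp84a had 5212, 4305 and 4056 CPM in amos antennae, against 1766, 1789.8 and 1842 CPM in control antennae (log2 fold change 1.30). Obp59a, which is needed for humidity sensing, had 5498, 4938 and 5333 CPM in amos antennae, against 2210.1, 2263 and 2267 CPM in control antennae. Obp56d had the largest increase among Obp genes with a mean of at least 50 reads in amos libraries, with 6076, 5309.5 and 4396 CPM in amos antennae, against 752, 722 and 824 CPM in control antennae (log2 fold change 2.75, SE 0.12, edgeR adjusted p = 2.5e-06). The groups did not overlap for these genes. As a sum, the family took 4.63% ± 0.54 of the reads in amos antennae and 6.09% ± 0.12 in control antennae (SD, n = 3 each). Obp19d, added after its values were seen, held a large part of that sum. It had 31291, 32520 and 24410 CPM in amos antennae, against 18727, 19439 and 20103 CPM in control antennae (log2 fold change 0.57).

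A set of 18 further antennal proteins, among them the chemosensory proteins a10 and Os-C and the CheB family related to ganglioside activator proteins, was mostly higher (15 higher, 2 lower, median log2 fold change 1.47). Os-C took the largest number of reads, with 34561, 30515 and 27097 CPM in amos antennae, against 10144, 10038 and 10986 CPM in control antennae (log2 fold change 1.54, SE 0.10, edgeR adjusted p = 1.5e-05). The chemosensory protein a10 had 26068, 23044 and 23687 CPM in amos antennae, against 8740.0, 9224 and 9445 CPM in control antennae and the antennal protein a5 had 8286, 6297 and 5854 CPM in amos antennae, against 2762, 2837 and 3004 CPM in control antennae. The exceptions were OS9, with 111, 144 and 70.2 CPM in amos antennae, against 7048, 7128 and 7586 CPM in control antennae (log2 fold change -6.09, SE 0.27, edgeR adjusted p = 2.3e-06), and EbpIII, with 2800.2, 2497 and 2431 CPM in amos antennae, against 6453, 6675 and 6698 CPM in control antennae (log2 fold change -1.38). Among genes sharing a symbol stem, all 8 CheA genes tested and 11 of 12 CheB genes were higher, with medians of 1.95 and 2.04. Members varied together between libraries, amos replicate 1 being the highest library for all 8 CheA genes and most CheB genes. CheA87a had 167, 73.1 and 67.4 CPM in amos antennae, against 35.5, 31.1 and 23.3 CPM in control antennae. Of the called genes, CheA46a and CheB93a overlapped between the groups. The CheB family also counts in the set above, and many of its genes had low levels. CheB38b had the largest change, with 29.0, 10.5 and 9.06 CPM in amos antennae, against 0.389, 0.117 and 0.0795 CPM in control antennae (log2 fold change 6.30).

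**Figure D3:**
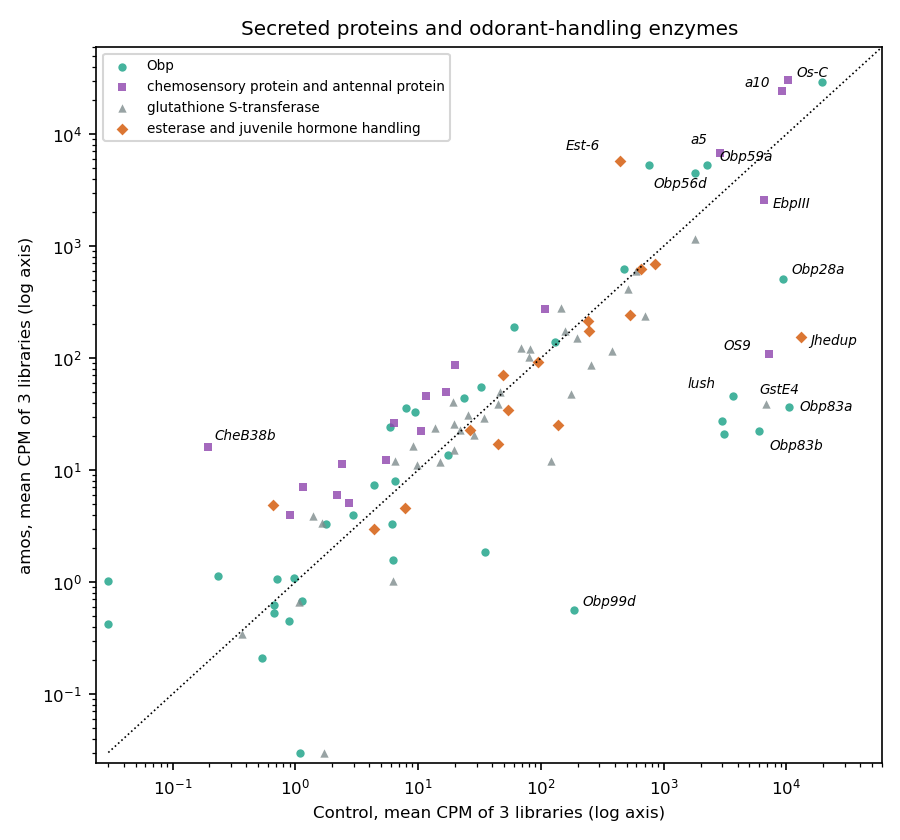
Mean CPM of 3 amos libraries (vertical, log axis) against mean CPM of 3 control libraries (horizontal, log axis) for the tested genes of 4 lists of secreted proteins and enzymes. The dotted line marks equal levels, and means under 0.03 CPM are drawn at 0.03. Obp83a, Obp83b, lush, OS9, Jhedup and GstE4 lie far below the line, while Os-C, a10, a5, Obp56d and Est-6 lie above it.

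Enzymes that break down or modify odorants and hormones moved in both directions, with opposite extremes in one family. Among esterases and enzymes that handle juvenile hormone, 7 of 16 were lower and 3 higher. Jhedup, a carboxylesterase related to juvenile hormone esterase, averaged 155 ± 23.2 CPM in amos antennae and 13245 ± 285 CPM in control antennae (SD, n = 3 each, log2 fold change -6.44, SE 0.16, edgeR adjusted p = 3.1e-07). Est-6, an esterase that degrades pheromone esters, went the other way, with 5761, 5533 and 6103 CPM in amos antennae, against 462, 408 and 443 CPM in control antennae (log2 fold change 3.70, SE 0.10, edgeR adjusted p = 3.5e-07). No amos library came near a control library for either gene. Among glutathione S-transferases, 11 of 35 were higher and 12 lower. GstE4 had by far the largest decrease of them, with 38.8, 54.8 and 22.8 CPM in amos antennae, against 7029, 6554 and 6715 CPM in control antennae (log2 fold change -7.47), and GstE1 had 11.8, 11.2 and 12.8 CPM in amos antennae, against 127, 112 and 126 CPM in control antennae (log2 fold change -3.37). Summed over the family, these transferases took 0.402% ± 0.021 of the reads in amos antennae and 1.24% ± 0.033 in control antennae (SD, n = 3 each).

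Other enzyme families leaned to the higher side. Of 67 cytochrome P450 genes tested, 30 were higher and 16 lower, and of 22 UDP-glycosyltransferase genes 13 were higher and 4 lower, both with a median log2 fold change of 0.41. Cyp4d21 (sxe1), a P450 gene known to be male-biased in heads, had 153, 125 and 67.6 CPM in amos antennae, against 4.79, 4.39 and 4.57 CPM in control antennae (log2 fold change 4.62, SE 0.30, edgeR adjusted p = 1.3e-05). Ugt37E1, with 5.19, 6.49 and 5.21 CPM in amos antennae, against 0.311, 0 and 0.0398 CPM in control antennae, had the largest increase of its family. Aldehyde oxidase genes diverged, with AOX4 higher (2167, 2180.3 and 2602 CPM in amos antennae, against 659, 641 and 629.9 CPM in control antennae) and AOX3 lower (1013, 994 and 1088 CPM in amos antennae, against 1750.1, 1689 and 1659 CPM in control antennae).

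Genes that all neurons express were lower by less than receptors were. Of 32 pan-neuronal and synaptic genes tested, 23 were lower and 2 higher, with a median log2 fold change of -0.56. The neuronal RNA-binding protein elav had 90.9, 96.2 and 78.9 CPM in amos antennae, against 163, 177 and 177 CPM in control antennae (log2 fold change -0.99, SE 0.09, edgeR adjusted p = 7.1e-05), and the synaptic vesicle protein nSyb had 346, 420.3 and 394 CPM in amos antennae, against 637, 649 and 637 CPM in control antennae (log2 fold change -0.75). The active zone protein Rim (log2 fold change -1.35) and the potassium channels Shal (log2 fold change -1.52) and Sh (log2 fold change -1.17) fell the most. Snap25, a plasma membrane SNARE, was higher, with a log2 fold change of 1.27 (SE 0.12, edgeR adjusted p = 8.1e-05), as was comt (log2 fold change 0.30), the NSF ATPase that recycles SNAREs. The list took 0.594% ± 0.054 of the reads in amos antennae and 0.894% ± 0.028 in control antennae (SD, n = 3 each), a ratio of 0.664. With scaling on ribosomal protein genes 12 of the 32 were lower (median -0.31), 1 was higher when any single control library was left out, and the calls of nSyb and Sh were lost in one fit over all 12 samples.

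Transcription factors known from olfactory neuron identity were lower as a group, with 7 of 9 called and a median log2 fold change of -1.16. The homeobox gene unpg had 0.192, 0.179 and 0.210 CPM in amos antennae, against 17.8, 20.0 and 17.2 CPM in control antennae (log2 fold change -6.57, SE 0.15, edgeR adjusted p = 3.1e-07) and the zinc finger gene dati had 4.97, 4.72 and 3.51 CPM in amos antennae, against 51.8, 56.7 and 49.7 CPM in control antennae (log2 fold change -3.61). Fer1, a basic helix-loop-helix gene, had 39.2, 42.4 and 37.4 CPM in amos antennae, against 172, 169 and 162 CPM in control antennae. Both unpg and dati are on the study's list of Or subsystem genes, chosen on microarrays of the same mutant, so their direction is not independent evidence. The POU gene pdm3 (log2 fold change -1.16) was lower too, as was the POU gene acj6 (log2 fold change -0.78). The call of acj6 was lost with scaling on ribosomal protein genes (-0.51, adjusted p = 0.0669).

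Olfactory neurons are cholinergic, and ChAT, the enzyme that makes acetylcholine, had 85.8, 93.6 and 83.8 CPM in amos antennae, against 148, 154 and 151 CPM in control antennae (log2 fold change -0.81, SE 0.07, edgeR adjusted p = 8.1e-05). Ace, the esterase that breaks acetylcholine down, moved the other way, with 232, 279.8 and 325 CPM in amos antennae, against 74.4, 67.8 and 76.7 CPM in control antennae (log2 fold change 1.91, SE 0.14, edgeR adjusted p = 3.2e-05). Of 26 neuromodulator receptor and peptide genes, 12 were lower and 5 higher. The muscarinic receptor mAChR-B had 8.93, 10.4 and 12.1 CPM in amos antennae, against 56.8, 57.5 and 61.4 CPM in control antennae (log2 fold change -2.50), and SIFaR, the receptor of SIFamide, had 5.25, 5.25 and 4.72 CPM in amos antennae, against 24.1, 23.8 and 21.7 CPM in control antennae (log2 fold change -2.22). The dopamine and ecdysteroid receptor DopEcR (log2 fold change -2.21), the octopamine receptor Oamb (log2 fold change -2.01) and GABA-B-R1 (log2 fold change -1.50) were lower too, and were picked after their values were seen. Of 6 nicotinic receptor genes tested, 3 were lower and none higher, and 5 were lower without amos replicate 2. Among amine genes, the serotonin transporter SerT fell (244, 269 and 284 CPM in amos antennae, against 733, 741 and 702 CPM in control antennae), while the vesicular transporter Vmat had 299.7, 278 and 287 CPM in amos antennae, against 111, 105 and 104 CPM in control antennae. The call of ChAT was lost in one fit over all 12 samples (-0.72, adjusted p = 0.105).

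Cell surface proteins that match axons with partners in the antennal lobe went both ways, more of them lower. Of 19 dpr genes tested, 11 were lower and 4 higher, of 18 beat and side genes 9 and 3, and of 33 other guidance genes 14 and 7. DIP-alpha, a binding partner of several Dpr proteins, had 1.02, 0.935 and 1.02 CPM in amos antennae, against 31.7, 43.4 and 42.1 CPM in control antennae (log2 fold change -5.32, SE 0.17, edgeR adjusted p = 7.2e-07). Dscam4 (log2 fold change -2.69), dpr2 (log2 fold change -2.42) and beat-Ia (log2 fold change -2.43) were among the lower genes, dpr2 with 4.07, 4.14 and 3.01 CPM in amos antennae, against 18.5, 22.0 and 18.5 CPM in control antennae. On the higher side, dpr15 had 2.34, 2.43 and 1.39 CPM in amos antennae, against 0.0389, 0.0778 and 0.0795 CPM in control antennae, at least 17.4-fold, and the leucine-rich repeat gene trn had 35.9, 40.1 and 46.8 CPM in amos antennae, against 10.4, 10.8 and 10.8 CPM in control antennae (log2 fold change 1.92). Without control replicate 5 or control replicate 7, 2 dpr genes were higher. With scaling on ribosomal protein genes 8 of the dpr genes were lower and 6 higher, and the median of the guidance genes, -0.11 with TMM scaling, was 0.15.

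Sensory cilia are built by intraflagellar transport. Of 24 genes of this transport and of the BBSome, 16 were lower and 1 higher, with a median log2 fold change of -0.45. BBS4 had 82.8, 79.1 and 65.8 CPM in amos antennae, against 178, 185 and 168 CPM in control antennae (log2 fold change -1.25, SE 0.09, edgeR adjusted p = 2.5e-05), and BBS8 (log2 fold change -1.21) and BBS1 (log2 fold change -1.15) fell to a like degree. Core transport genes moved less, with nompB (IFT88) at -0.28 and rempA (IFT140) not called at -0.37. Klp68D, a subunit of the kinesin-II motor, was the one higher gene (log2 fold change 0.57). With scaling on ribosomal protein genes 7 of the 24 were lower, and without amos replicate 2 there were 2 higher genes. Rfx, the transcription factor of ciliary genes, had 38.5, 54.1 and 43.1 CPM in amos antennae, against 64.4, 64.7 and 67.8 CPM in control antennae, and its call was lost under the same scaling (-0.30, adjusted p = 0.17).

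Of 3 transduction genes of Johnston's organ tested, 1 was higher and none lower. The mechanotransduction channel nompC had 15.6, 13.7 and 9.90 CPM in amos antennae, against 4.36, 5.87 and 4.33 CPM in control antennae (log2 fold change 1.40, SE 0.19, edgeR adjusted p = 0.00065). The channel gene iav was not called, with 1.92, 2.49 and 0.969 CPM in amos antennae, against 0.740, 1.59 and 1.27 CPM in control antennae (edgeR adjusted p = 0.29), and nan was under the filter. Of 9 genes of motile chordotonal cilia, 3 were lower, among them the axonemal dynein Dhc93AB (8.71, 14.2 and 6.63 CPM in amos antennae, against 33.8, 39.1 and 32.2 CPM in control antennae), and 2 were higher.

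**Figure D4:**
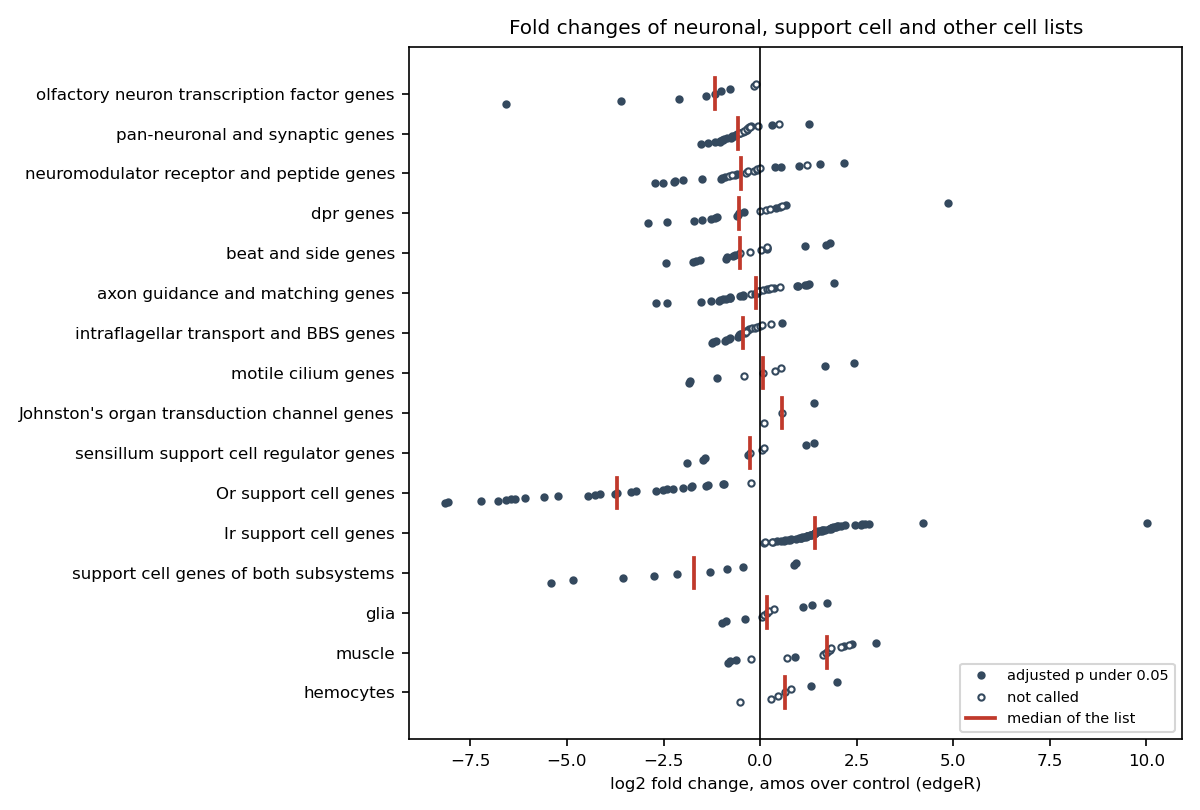
Log2 fold change (amos over control, horizontal) of every tested gene in 16 lists. Filled points passed an edgeR adjusted p of 0.05, open points did not, and red bars are list medians. Medians of the neuronal lists lie between -1.16 and -0.11, that of Or support cell genes at -3.70 and that of Ir support cell genes at 1.42.

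Support cell genes differed between the subsystems. The study assigned genes to support cells of either subsystem from its microarrays of amos and ato mutants and a cell atlas, so the direction of these lists is not independent evidence. Of 29 Or support cell genes tested, 28 were lower (median log2 fold change -3.70), and of 57 Ir support cell genes 54 were higher and none lower (median 1.42). The first list took 0.0906, 0.111 and 0.0790% of the reads in the amos libraries, against 4.97, 5.04 and 5.11% in the control libraries. The second list took 9.57, 8.51 and 8.43% in the amos libraries, against 3.20, 3.22 and 3.40% in the control libraries. Every amos library thus had over 2 times the Ir support cell share of any control library.

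A further list held support cell genes of both subsystems, from the same source. Of its 10 genes, 8 were lower and 2 higher. Sp1, a zinc finger gene, had 15.5, 16.7 and 9.82 CPM in amos antennae, against 578, 605 and 577 CPM in control antennae (log2 fold change -5.41, SE 0.20, edgeR adjusted p = 9.7e-07), and CG32040 had 4.01, 4.26 and 2.62 CPM in amos antennae, against 103, 97.9 and 105 CPM in control antennae. Ndae1, a sodium-driven anion exchanger, and wb, a laminin subunit, were the 2 higher genes (0.92 and 0.87). The largest increases on the Ir support list were those of CG34456 and qin. CG34456 had 224, 189 and 176 CPM in amos antennae, against 0.234, 0.117 and 0.199 CPM in control antennae, close to the floor in controls. The study detected its RNA around the sacculus in Canton-S antennae, a strain other than the control strain here. For qin the levels were 43.6, 56.1 and 50.1 CPM in amos antennae, against 2.76, 2.45 and 2.66 CPM in control antennae (log2 fold change 4.23).

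Regulators of sensillum support cells were less uniform. Of 9 tested, 4 were lower and 2 higher (median log2 fold change -0.26). Leaving out any single replicate other than amos replicate 3 left 1 higher. Su(H), the transcription factor of Notch signalling that is strongly expressed in socket cells, had 66.9, 69.6 and 63.2 CPM in amos antennae, against 236, 237 and 251 CPM in control antennae (log2 fold change -1.88, SE 0.07, edgeR adjusted p = 1.4e-06). Sox15, a socket cell factor, had 37.8, 43.4 and 37.9 CPM in amos antennae, against 109.7, 113 and 104 CPM in control antennae (log2 fold change -1.48), and sv (Pax2), a shaft cell factor, had 62.1, 73.8 and 64.9 CPM in amos antennae, against 157, 192 and 183 CPM in control antennae (log2 fold change -1.43). The groups of these 3 genes did not overlap. In contrast, vvl, a POU gene of antennal cells, was higher, with 28.8, 31.7 and 37.0 CPM in amos antennae, against 13.6, 14.8 and 13.6 CPM in control antennae (log2 fold change 1.19), and the sheath cell genes nompA (0.11) and pros (0.06) were not called. Of 5 E(spl) genes, direct targets of Notch, 4 were lower and none higher (median log2 fold change -1.07), E(spl)m3-HLH with 4.07, 2.85 and 3.85 CPM in amos antennae, against 22.3, 22.6 and 25.2 CPM in control antennae and E(spl)m7-HLH with 0.687, 0.438 and 0.524 CPM in amos antennae, against 6.03, 5.79 and 5.45 CPM in control antennae.

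The study's array lists, receptors apart, allowed a view by class of protein. These lists hold genes over 4-fold apart between amos and ato antennae on arrays, so the counts describe how far a list chosen on the same mutant moved here. Of 42 neuronal genes on the Or list, 40 were lower (median -2.88), and of 47 non-neuronal genes 43 were lower (median -2.52). Of 24 neuronal genes on the Ir list, 21 were higher (median 1.07), and of 68 non-neuronal genes 64 were higher (median 1.41). Within the Or list the small secreted proteins had the largest median (-6.78, 9 of 9 lower), followed by transcription factors (-3.61, 9 of 9 lower), and enzymes (29 of 33 lower, 3 higher) had a median of -2.62. On the Ir list, enzymes (24 of 26 higher) had a median of 1.67 and transcription factors (9 of 9 higher) one of 1.30. Map205, a microtubule-associated protein gene on the Or list, had 0, 0.139 and 0 CPM in amos antennae, against 46.5, 46.5 and 50.5 CPM in control antennae, and Miox, the inositol oxygenase on the Ir list, had 124, 118 and 225 CPM in amos antennae, against 7.83, 6.03 and 6.80 CPM in control antennae (log2 fold change 4.48).

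Antennal identity and segment genes included few large changes. Of 16 tested, 6 were higher and 3 lower, with a median log2 fold change of 0.29, and the selector genes Dll, hth and ss were not called. Without amos replicate 2, 5 were lower. The largest decrease was that of dac, the dachshund gene of intermediate appendage segments, with 4.56, 3.76 and 2.38 CPM in amos antennae, against 32.5, 36.9 and 31.9 CPM in control antennae (log2 fold change -3.27, SE 0.20, edgeR adjusted p = 9.1e-06). The spalt genes were higher, salm with 12.5, 16.5 and 16.7 CPM in amos antennae, against 5.18, 5.75 and 5.61 CPM in control antennae and salr with 17.1, 21.4 and 17.9 CPM in amos antennae, against 9.81, 8.09 and 8.87 CPM in control antennae. Among proneural genes ato had at most 2 reads in any library, and lz, a Runx gene that patterns antennal sensilla, was higher at low level (log2 fold change 1.23), a call lost in the fit over 12 samples and without control replicate 6, control replicate 7 or amos replicate 2.

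Cuticle genes showed large changes in few members. Of 97 genes of the Cpr chitin-binding cuticle protein family, 34 were tested, 14 higher and 8 lower, and leaving out control replicate 6 left 9 higher. Cpr12A averaged 0.105 ± 0.00520 CPM in amos antennae and 18.3 ± 1.14 CPM in control antennae (SD, n = 3 each, log2 fold change -7.43, SE 0.16, edgeR adjusted p = 2.7e-07), and Lcp1, a larval cuticle protein gene, had a log2 fold change of 4.40. TwdlX was at least 70.7-fold lower, with 0, 2 and 0 reads in the amos libraries and 4.79, 4.94 and 5.88 CPM in control antennae. Of 26 genes of chitin synthesis, deacetylation and breakdown, 6 were higher and 5 lower, near the background. Idgf6, an imaginal disc growth factor of the chitinase family, had 171, 147 and 116 CPM in amos antennae, against 20.2, 22.2 and 15.5 CPM in control antennae (log2 fold change 2.88), and the tanning gene t (tan) had 209, 235 and 218 CPM in amos antennae, against 62.2, 49.3 and 59.0 CPM in control antennae (log2 fold change 1.93).

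Glial markers did not move one way. Of 11 tested, 3 were higher and 3 lower (27.3% each, median log2 fold change 0.17), near the shares over all genes tested. With scaling on ribosomal protein genes 6 were higher and 2 lower. The defining glial factor repo was lower by little (log2 fold change -0.39, SE 0.10, edgeR adjusted p = 0.012), a call lost with scaling on ribosomal protein genes, in the fit over 12 samples and without control replicate 6 or control replicate 7. The barrier receptor moody was not called, with 157, 145 and 156 CPM in amos antennae, against 130.3, 139.6 and 152 CPM in control antennae. The sugar transporter Tret1-1 was higher, with 252, 233 and 288 CPM in amos antennae, against 102, 97.0 and 103 CPM in control antennae, and the G protein regulator loco was lower, with 138, 147 and 129.5 CPM in amos antennae, against 277, 273 and 263 CPM in control antennae.

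Markers of cells other than the sensory and glial ones were checked in both groups. Of 18 muscle genes 6 were higher and 3 lower, with a median of 1.72. The myosin heavy chain gene Mhc varied widely within the controls, with 68.6, 38.4 and 91.6 CPM in amos antennae, against 0.311, 34.9 and 27.8 CPM in control antennae (edgeR adjusted p = 0.19). Summed muscle marker levels overlapped between the groups, with 706, 533 and 793 CPM in the amos libraries, against 452, 650.4 and 531 CPM in the control libraries. The count of higher muscle genes was 1 without control replicate 7 and 10 without control replicate 6, and the calls of Act57B, Act87E and Mp20 were lost without control replicate 7. Of 7 hemocyte markers 2 were higher and none lower, with Pxn, a peroxidase of blood cells, higher (107, 104 and 129 CPM in amos antennae, against 30.5, 27.5 and 26.6 CPM in control antennae) and Hml not called. Without amos replicate 3, 5 were higher, and with scaling on ribosomal protein genes 4. Of 12 photoreceptor markers tested, 3 were higher and 3 lower, with log2 fold changes from -2.66 to 7.17. When any single replicate was left out 2 were higher, and without amos replicate 3, 5 were lower. Summed photoreceptor marker levels were 254, 288 and 314 CPM in the amos libraries, against 307, 331 and 329 CPM in the control libraries. Within this list the eye opsin gene ninaE was under 1 CPM in every library. Of 3 chorion genes tested, 2 were lower, both from low control levels, and of 8 fat body markers 3 were lower and 1 higher, a call lost without control replicate 6. The yolk protein gene Yp2 had 7.94, 9.49 and 2.75 CPM in amos antennae, against 10.4, 7.85 and 8.27 CPM in control antennae, and markers of testis and accessory gland were below the filter. The part of other tissues in the gene lists above was not tested.

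Among housekeeping groups the protein genes of the mitochondrial genome had the largest median change. Of 77 cytoplasmic ribosomal protein genes, 42 were lower and 6 higher (median log2 fold change -0.32), and leaving out control replicate 6 left 23 lower and 3 higher. RpL8 had 379, 432 and 429 CPM in amos antennae, against 732, 780.0 and 598 CPM in control antennae. Of 71 nuclear genes of oxidative phosphorylation 19 were lower and 11 higher (median -0.05). Of 70 mitochondrial ribosomal protein genes 6 were lower and 13 higher (median 0.08), and of 32 proteasome genes 6 were lower and 6 higher. Leaving out 1 control library shrank these counts, to 10 lower and 5 higher oxidative phosphorylation genes without control replicate 5, 11 and 6 without control replicate 6, and 15 and 6 without control replicate 7. The proteasome counts were 2 lower and 4 higher without control replicate 5, 2 and 2 without control replicate 6 or control replicate 7, and 3 and 6 without amos replicate 2. For mitochondrial ribosomal proteins they were 3 lower and 10 higher without control replicate 5, 3 and 7 without control replicate 6, 3 and 12 without amos replicate 2, and 5 and 22 without amos replicate 3. With scaling on ribosomal protein genes these 3 lists leaned to the higher side, with 24 and 4, 37 and 1, and 14 and 0 genes higher and lower. In contrast, 9 of 10 protein genes of the mitochondrial genome were lower (median -6.48). By DESeq2, and with scaling on ribosomal protein genes, 8 were lower and 1 was higher, and 7 to 9 were lower when a replicate was left out. Together the protein genes of this genome took 0.178, 0.128 and 0.127% of the reads in the amos libraries, against 1.16, 1.35 and 1.44% in the control libraries. Within that genome the changes ranged widely, since mt:Cyt-b had 0.302, 2.39 and 0.183 CPM in amos antennae, against 698, 888 and 811 CPM in control antennae and mt:ND5 was not called (0.59). Nuclear oxidative phosphorylation genes took 2.67% ± 0.15 of the reads in amos antennae and 2.66% ± 0.062 in control antennae (SD, n = 3 each). Strain background and genotype cannot be told apart for the changes of the mitochondrial genome either, and their cause was not tested.

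Stress, metabolic and division genes went both ways. Of 16 heat shock protein genes tested, 6 were higher and 2 lower (median log2 fold change 0.41). There were 3 higher without control replicate 6 and 2 without control replicate 7, and 1 was lower when any single control library was left out. Hsc70-3, the chaperone of the endoplasmic reticulum, had 394, 378 and 548 CPM in amos antennae, against 1302, 1217 and 1342 CPM in control antennae (log2 fold change -1.57, SE 0.16, edgeR adjusted p = 0.00016). Ldh, lactate dehydrogenase, had 58.1, 62.1 and 82.0 CPM in amos antennae, against 12.3, 11.9 and 11.4 CPM in control antennae (log2 fold change 2.49), while other glycolytic enzymes such as Tpi (-0.64) and Pgi (0.26) moved little. The elongase gene bond fell (123, 103 and 108 CPM in amos antennae, against 379, 373 and 399 CPM in control antennae), whereas the desaturase Desat1 had 2735, 2551 and 2648 CPM in amos antennae, against 1488, 1448 and 1569.8 CPM in control antennae. Of 22 cell cycle and replication genes 11 were higher and 4 lower, all at low levels, and without control replicate 5 there were 7 higher. The mitotic checkpoint kinase BubR1 had 6.65, 6.37 and 4.85 CPM in amos antennae, against 0.973, 1.17 and 0.915 CPM in control antennae, and the ribonucleotide reductase subunit RnrS had 22.5, 20.5 and 14.5 CPM in amos antennae, against 6.97, 7.11 and 7.48 CPM in control antennae. Both antimicrobial peptide genes tested were higher, the drosomycin-like Drsl5 with 1622, 1541 and 1986 CPM in amos antennae, against 528, 627 and 618 CPM in control antennae (log2 fold change 1.52).

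**Figure D5:**
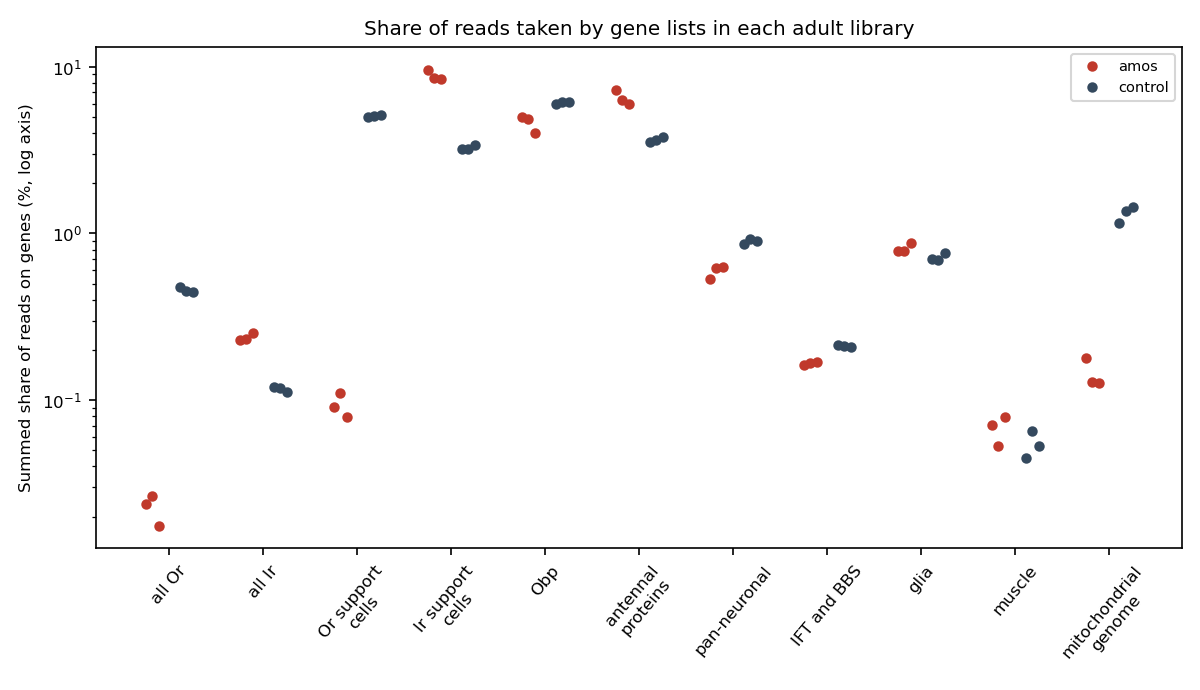
Share of the reads counted on genes (%, log axis) that 11 gene lists took in each of the 3 amos libraries (red, left of each pair) and the 3 control libraries (dark, right). Or receptors, Or support cell genes and the mitochondrial genome had at least 5-fold less in amos, Ir receptors and Ir support cell genes had over 2 times as much, and the glia and muscle sums lay close together in both groups.

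Symbol families with at least 8 tested members gave a further view. Beside the receptor, CheA and CheB families, Sec genes of the secretory pathway had 7 of 13 lower and 1 higher, syntaxins 5 of 9 lower and none higher, and the Pgant family of mucin-type glycosyltransferases 4 of 10 higher and none lower. Tetraspanins split, with 11 of 27 higher and 9 lower. Genes in no list included mthl8, a G protein-coupled receptor of the methuselah family, with 0, 0.0796 and 0 CPM in amos antennae, against 35.0, 38.5 and 36.1 CPM in control antennae (log2 fold change -10.02), and jtb, with 1.79, 0.895 and 1.18 CPM in amos antennae, against 77.4, 82.7 and 83.5 CPM in control antennae (log2 fold change -6.03). The secreted protein gene to (takeout), which was picked after its values were seen, had 114, 145 and 38.9 CPM in amos antennae, against 1545, 1608 and 1605 CPM in control antennae (log2 fold change -4.03). On the higher side CCAP, the gene of a cardioactive peptide, had 9.62, 6.96 and 7.41 CPM in amos antennae, against 0.0779, 0.0778 and 0.159 CPM in control antennae, and CG8665 had 122, 119.5 and 159 CPM in amos antennae, against 1.44, 0.816 and 1.15 CPM in control antennae. The white gene w, a mutant allele of which names the control strain, was at least 23.7-fold higher, with 2.94, 2.69 and 2.75 CPM in amos antennae, against 0, 0.0389 and 0 CPM in control antennae.

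The autosomal arms 2L, 2R, 3L and 3R differed little in the share of genes called, with 22.9% to 24.8% higher and 23.0% to 25.1% lower. On X, 16.3% of 1531 genes were higher and 25.9% lower, and on the small chromosome 4, 14.1% of 78 were higher and 44.9% lower. The dosage compensation RNA lncRNA:roX1, which males express, had 342, 348 and 186 CPM in amos antennae, against 512, 631 and 667 CPM in control antennae (log2 fold change -1.08), and lncRNA:roX2 had 47.0, 36.4 and 25.8 CPM in amos antennae, against 28.0, 33.0 and 34.6 CPM in control antennae. Samples held both sexes, and the part of the sex ratio in these differences was not tested.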

How the data were processed

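RNA was extracted from about 300 adult antennae per sample, and stranded mRNA libraries were sequenced. The deposited files hold raw read counts per gene for each sample, not normalized, which the authors made by trimming adapters, aligning reads with TopHat2 and counting with HTSeq. The submitters' processing notes name cutadapt 1.2.1, TopHat2 2.0.9, HTSeq 0.5.4p3 and the build BDGP5, whereas the methods name Skewer and a FlyBase release 6 genome. Neither states the strand setting or overlap mode, which leaves overlapping and antisense genes uncertain.

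Samples were grouped by their labels. Lines for unassigned reads were left out, and 6.30% to 7.84% of the reads with a single place fell on no gene in the adult libraries. Counts of the 6 adult samples were compared in R 4.3.3 by edgeR 4.0.16, using its quasi-likelihood test (TMM scaling, filterByExpr, Benjamini-Hochberg adjustment at 0.05). The methods name no test for these data. On simulated counts, the test recovered 86 of 98 genes changed 2-fold and 101 of 102 changed 4-fold, with 14 false calls among 9502 genes. Only these genes, all above a minimum control level, were changed, and both groups were drawn with the same dispersions. In the data 47.0% of the genes tested were called, and the amos replicates differed more among themselves than the control replicates. The share of false calls in the data therefore cannot be read from the simulation. Lists are described by their counts and medians, with no test. Members and lists were chosen with earlier results of these data known. Named genes are those that define a list and, per direction, up to 3 members with the largest change among called genes whose groups do not overlap and that have at least 50 mean counts in the higher group, with 12 per direction among genes in no list. Other genes named (Or10a, Or43b, Obp28a, Obp19d, DopEcR, Oamb, GABA-B-R1, TrpA1, Ir75b, Ir68a, mt:ND5, Yp2, Dll, hth, ss, pros, nompA, to and both roX RNAs) were chosen after their values were seen. Replicates are biological per the methods, and p-values measure the spread between them. Alternatives were DESeq2 1.42.0, other scalings and filters, thinned counts, a fit over all 12 samples and each replicate left out. Some listed genes that matched no row by symbol were not analysed here.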

Additional observations from a re-analysis of the deposited data

Results flagged for a closer look

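The larval disc samples enter the report only through the fit over all 12 samples. Among the genes that the naming rule takes as higher in amos antennae, 5 had more than 3 reads in all 3 amos disc libraries and at most 3 reads in every control disc library. Their mean levels in the amos discs were 21.8 CPM for asRNA:CR43767, 2.91 CPM for CR43671, 0.902 CPM for snRNA:U2:34ABa, 0.322 CPM for COX7AL2 and 0.307 CPM for Listericin. The antisense gene asRNA:CR43767 had 777, 1028 and 958 reads in the amos discs and 0, 0 and 1 reads in the control discs, and whether its reads can be told from those of the opposite strand is not known. Listericin had 20, 13 and 5 reads in amos discs, against 2, 0 and 1 in control discs, so it stood only a little above the floor. Groups of 3 libraries were not searched for single libraries that stand apart, and no difference between the tissues was tested.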

How the results depend on the processing

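The counts of genes called kept within 1.5 times of 2203 higher and 2370 lower under DESeq2, scaling by total count, no filter, a filter of 10 counts in every library, thinning, omission of the mitochondrial genome and one fit over all 12 samples (2391 higher and 1583 lower). Leaving out each replicate in turn gave 1662 to 2508 higher and 1797 to 2462 lower. They moved with scaling on ribosomal protein genes (3557 higher, 1267 lower, with 3470 calls shared with the TMM fit) and with a fold change over 2 required as well (814 higher, 815 lower). Of 339 named genes tested, 327 were called. Under at least 1 alternative, 72 of the 339 lost the call or turned sign, 34 of them when a replicate was left out. These counts take in the uncalled genes below whose sign turned. The fit over all 12 samples lost 44 calls. The sign turned for the uncalled genes Toll-7 (0.15 with ribosomal protein scaling, -0.22 to 0.00 when a replicate was left out) and kkv (0.18 with ribosomal protein scaling, 0.00 in the fit over 12 samples, and -0.34 to 0.12 when a replicate was left out) and for alphaTub84D (0.02 with ribosomal protein scaling). List medians near 0 turned as well. With ribosomal protein scaling 10 of them, -0.20 to -0.02 with TMM scaling, were 0.06 to 0.22. These were the medians of the other guidance (0.15), glutathione S-transferase (0.13), cholinergic (0.11), ecdysone response (0.06), Tweedle (0.14), tanning (0.20), tracheal (0.15), nuclear oxidative phosphorylation (0.21), proteasome (0.22) and vacuolar ATPase (0.06) genes. When a replicate was left out, 11 medians turned, reaching -0.02 for ppk, -0.03 for Obp, 0.01 for glutathione S-transferase, 0.11 for cholinergic, -0.24 for motile cilium, -0.11 for Cpr, 0.10 for tanning, -0.16 for photoreceptor, 0.01 for tracheal, 0.02 for oxidative phosphorylation and 0.03 for proteasome genes. Other alternatives turned 8, the furthest being pheromone accessory genes with 10 counts required in every library (-1.27, against 0.55). The cause was not tested. No paired analysis was possible because the adult groups share no replicate number. Depth limits genes near the floor of 3 reads, where a low amos level was not detectable rather than absent.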
